A study of Danio rerio with 12 samples.

Results

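Zebrafish larvae that had developed in 3 or 30 ppb atrazine were compared, as 6 pools, with 6 pools that had developed in 0 or 0.3 ppb, which together are all 12 pools of the series. Atrazine is a triazine herbicide used on crops. Embryos of the wild-type AB strain were exposed from about 1 hour after fertilization (hpf), and whole larvae were collected at 72 hpf in pools of 50, with 3 pools at 3 ppb, 3 at 30 ppb, 3 at 0.3 ppb and 3 at 0 ppb, where 0 ppb is the untreated control. Each pool was hybridised to a 1-colour oligonucleotide array, and each value below is a log2 fluorescence intensity, the mean over the features of a gene or of a target ID. Such a gene or target is called a unit here. No label says whether the pools of a dose came from separate clutches, and a pool of whole larvae cannot tell fewer cells of a type from less RNA per cell.

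The grouping of the 2 higher doses against control and the lowest dose was chosen by the array intensities themselves, in which the pools at 3 and 30 ppb were seen to stand apart in some units, so the differences between the sides are a description, and counts from a fit of that contrast are printed as background with nothing read from them. The tests of dose within a side, 30 against 3 ppb and 0.3 against 0 ppb, do not use the contrast of the sides. They come from the same arrays in which the grouping was noticed, so they are not free of that choice. A unit is said not to overlap when all 6 pools at 3 and 30 ppb lay above, or all below, the 6 pools at 0 and 0.3 ppb. Differences are the mean of the higher doses minus the mean of control and lowest dose, with the standard error (SE) of a fit over 12 pools.

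Atrazine has been studied in vertebrates mainly for effects on the axis that runs from hypothalamus to pituitary to gonad. In that axis hypothalamic neurons release peptides that reach the pituitary, and the pituitary secretes gonadotropins that act on the gonad. In a larva of 72 hpf the pituitary and the hypothalamic peptide neurons are present, while the gonad is still undifferentiated. The arrays carried whole-larva transcripts: lens crystallins and striated muscle genes were among the brightest lists, with median members brighter than 90.5% of units for lens and photoreceptor and 87.0% for muscle.

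Of 37144 units, 189 were higher without overlap (0.509% of units) and 31 were lower without overlap (0.0835%). The higher units differed by a median of 0.61, or 1.53-fold, with a range of 1.11 to 3.76-fold, and 38 of them by more than 2-fold. The lower units differed by a median of -0.23 and at most by -0.42, and 0 of the 31 reached 2-fold. Leaving out a pool makes the rule easier to meet, and the counts were then 207 to 318 higher and 45 to 158 lower. The higher units were dim: 163 of the 189 (86.2%) lay below the median intensity of all units, against 12 of the 31 lower units. In the dimmest 25% of units 91 were higher and 5 lower without overlap, and in the brightest 25% the counts were 5 and 8. limma's moderated test of the sides had 54 units higher (0.145%) and 0 lower (0%) at an adjusted p under 0.05. Nothing is read from that test because the grouping used it. At an unadjusted p under 0.05 it had 1284 units higher and 779 lower. Their total of 2063 is near a share of 0.05, which evenly spread p-values would give. The tests of 30 minus 3 ppb and 0.3 minus 0 ppb had fewer, 283 and 551 units. That share is therefore no fixed yardstick here, and nothing is read from the total. The array files give no background call, so how close the dim units lay to background could not be assessed.

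The shift of these units lay between 0.3 and 3 ppb. For the 189 higher units the median difference was 0.05 for 0.3 minus 0 ppb, 0.58 for 3 minus 0.3 ppb and 0.03 for 30 minus 3 ppb. For the 31 lower units these medians were 0.06, -0.25 and -0.00. A rule that asks for separated sides favours such a profile, so it describes the selected units and nothing more. In the per-pool medians of the 189 units, pools at 3 and 30 ppb stood between 0.50 and 0.77 above the mean of the 0 ppb pools, against -0.06 to 0.12 in the pools at 0 and 0.3 ppb.

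**Figure D1:**
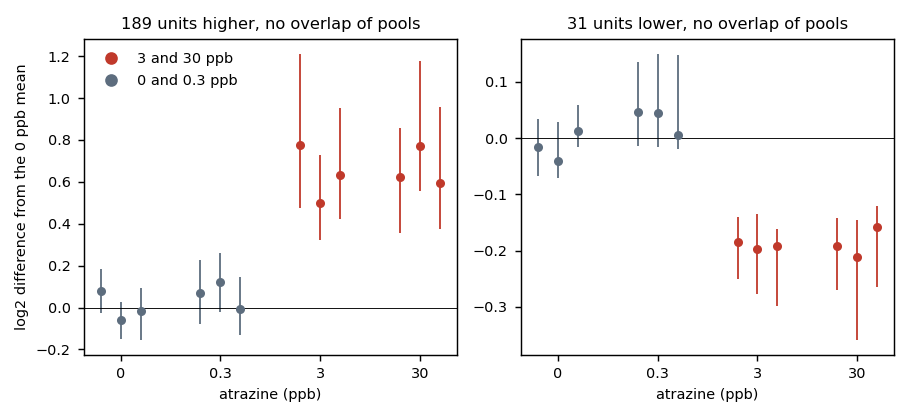
Median difference from the mean of the 0 ppb pools (log2, vertical axis) in each of the 12 pools, by atrazine dose in ppb (horizontal axis), for the 189 units higher (left) and the 31 units lower (right) without overlap. Points are medians over units and bars run from the 25th to the 75th percentile of units; the pools at 3 and 30 ppb stand at 0.50 to 0.77 on the left and at -0.21 to -0.16 on the right. The units were chosen for this separation.

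Of the 2458 genes with a usable symbol, 12 were higher without overlap (0.488%) and 10 were lower (0.407%), so about as many genes lay on either side. The 12 were lhb, npffl, tmigd1, il12a, smtla, avp, dntt, mgp, stard4, ilkap, kcnk1a and ttll11. The 10 lower genes were vgll2a, sacm1lb, tgfbrap1, sertad3, tp53rk, nubp1, dctn4, pak4, rbpja and fubp3. At the edge of the rule, dntt and avp passed with gaps of 0.014 and 0.017 between their nearest pools, while ccr7 missed it by 0.012. On the lower side tgfbrap1 and pak4 passed by 0.012 and 0.018, and arfrp1 and ptprma missed by 0.009 and 0.018.

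Of the 12 higher genes, 4 encode neuropeptides or pituitary hormones. The gene with the largest difference was lhb. Its product is the hormone-specific subunit of luteinizing hormone, the pituitary gonadotropin that drives sex steroid output of the gonad. Its pools read 8.17, 6.92 and 7.06 at 3 ppb and 7.48, 7.52 and 7.08 at 30 ppb, against 6.0, 5.91 and 5.93 at 0 ppb and 6.39, 6.26 and 6.17 at 0.3 ppb. The sides were 0.53 apart at their nearest pools, and the highest pool was replicate 1 at 3 ppb. The difference was 1.27 (SE 0.19), or 2.4-fold, and 9 of 11 features were higher. The gene was dim, brighter than 19.6% of units.

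The gene npffl, named for its likeness to the neuropeptide FF precursor, read 10.35, 9.85 and 10.17 at 3 ppb and 10.03, 10.32 and 9.84 at 30 ppb, against 9.47, 9.19 and 9.36 at 0 ppb and 9.54, 9.47 and 9.40 at 0.3 ppb. RFamide peptides of this kind act in the brain on pain, feeding and hormone release in vertebrates. Its sides were 0.30 apart, and the difference was 0.69 (SE 0.11), or 1.61-fold, with 10 of 12 features higher.

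The gene smtla encodes a somatolactin, a hormone of the fish pituitary in the growth hormone family. It read 6.87, 7.07 and 7.20 at 3 ppb and 7.07, 7.39 and 7.08 at 30 ppb, against 6.59, 6.52 and 6.52 at 0 ppb and 6.69, 6.76 and 6.32 at 0.3 ppb. The lowest pool of the higher doses stood 0.12 above the highest pool of the other side. The difference of 0.55 (SE 0.11) came from 8 of 12 features, and it was 0.31 when the median of the features was used. For avp, which encodes the vasotocin precursor of the hypothalamus, a regulator of water balance and social behaviour in fish, the pools read 9.52, 9.16 and 9.42 at 3 ppb and 9.24, 9.46 and 8.98 at 30 ppb, against 8.65, 8.61 and 8.96 at 0 ppb and 8.82, 8.95 and 8.96 at 0.3 ppb. The sides nearly touched, 30 ppb replicate 3 at 8.98 and the 2 highest of the other side at 8.96. The difference was 0.47 (SE 0.11), with 11 of 12 features higher.

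**Figure D2:**
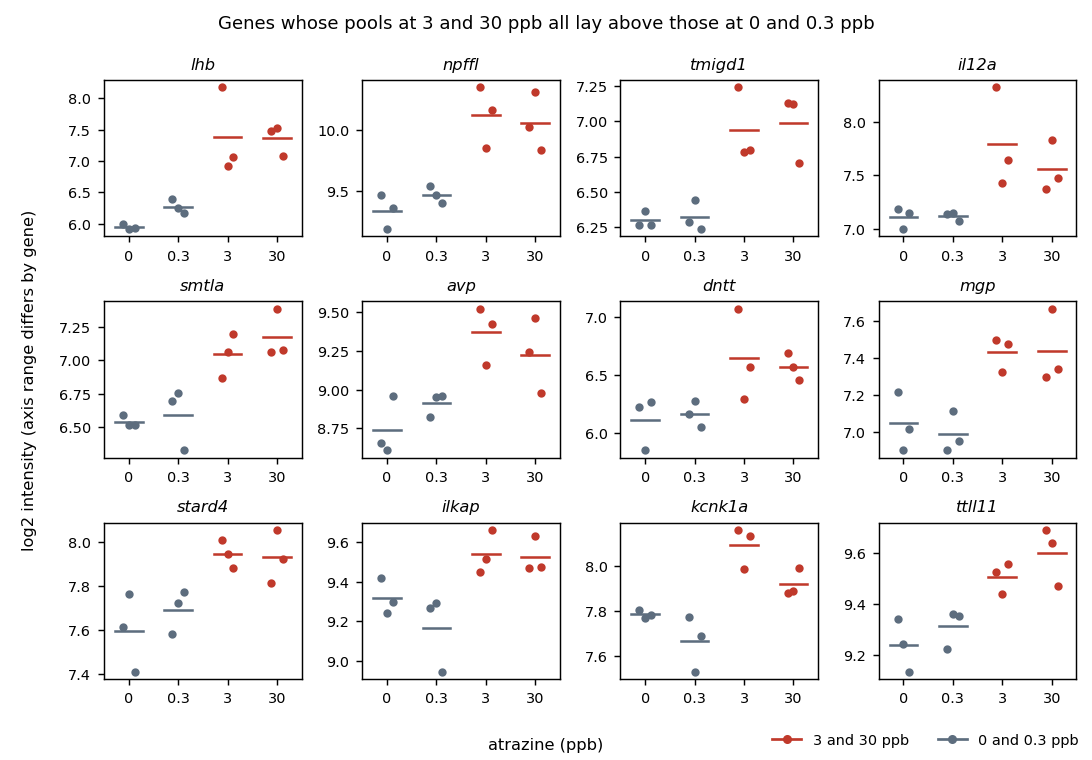
Log2 intensity (vertical axis, with its own range in each panel) by atrazine dose in ppb (horizontal axis) for the 12 genes whose pools at 3 and 30 ppb all lay above those at 0 and 0.3 ppb. Points are single pools, 3 per dose, and bars are dose means; lhb has the widest separation, with pools at 6.92 to 8.17 against 5.91 to 6.39.

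The other 5 measured peptide and hormone genes overlapped between the sides. Their differences were 0.23 for adcyap1a (SE 0.14), the PACAP precursor, 0.19 for the second somatolactin gene smtlb (SE 0.14), 0.10 for the orexin precursor hcrt (SE 0.16), -0.01 for trh (SE 0.19), the thyrotropin-releasing hormone precursor, and -0.03 for ghrh (SE 0.13), the growth hormone-releasing hormone precursor. Over all 9 genes the median difference was 0.23 against -0.01 for all units, with 7 higher and 2 lower. The median of the 9 genes within a pool, relative to each gene's mean, ran from -0.08 to 0.46 in the pools at 3 and 30 ppb and from -0.36 to -0.10 in those at 0 and 0.3 ppb, without overlap. The list was drawn up with earlier results of these data known, and 4 of its 9 genes were themselves without overlap. The separation of its pool medians therefore adds no result beyond those genes. Its median member was dim, brighter than 20.9% of units. The receptors measured were few. The luteinizing hormone receptor gene lhcgr differed by -0.20 (SE 0.14). The neuropeptide Y receptor gene npy7r differed by -0.17 (SE 0.29) and the orexin receptor gene hcrtr2 by 0.03 (SE 0.12). For lhcgr, 0.3 minus 0 ppb was 0.23, 3 minus 0 ppb -0.15 and 30 minus 0 ppb -0.02. For npy7r these were 0.23, -0.13 and 0.02.

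Steroid and egg genes downstream in that axis were measured as well. The 9 measured had a median of -0.07, with 3 higher and 6 lower and 0 without overlap. Of all genes with a usable symbol, 0.488% were higher and 0.407% lower without overlap, so 0 of 9 says little. The median member was dim, brighter than 13.9% of units, and how close such genes lay to background could not be assessed. The egg coat gene zp2.2 differed by 0.27 (SE 0.15), the estradiol-oxidising dehydrogenase gene hsd17b2 by -0.18 (SE 0.11) and the yolk protein gene vtg5 by 0.00 (SE 0.21).

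The other 8 higher genes had no common role. The gene tmigd1 encodes a membrane protein with immunoglobulin domains that in mammals sits in kidney and gut epithelium. It read 7.24, 6.78 and 6.80 at 3 ppb and 7.13, 7.12 and 6.71 at 30 ppb, against 6.27, 6.37 and 6.27 at 0 ppb and 6.29, 6.45 and 6.24 at 0.3 ppb. The gap was 0.26 and the difference 0.65 (SE 0.11), yet only 6 of 9 features were higher. The gene il12a encodes a subunit of interleukin 12, a cytokine that steers T cells towards interferon production. It read 8.32, 7.43 and 7.64 at 3 ppb and 7.38, 7.83 and 7.48 at 30 ppb, against 7.18, 7.00 and 7.15 at 0 ppb and 7.14, 7.15 and 7.08 at 0.3 ppb. The pools at 3 and 30 ppb spread widely (SD 0.35) and those of the other side little (SD 0.07), around a difference of 0.56 (SE 0.14).

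For dntt, the template-independent DNA polymerase of lymphocyte receptor assembly, the pools ran from 6.29 over a median of 6.57 to 7.08 at 3 and 30 ppb, against 5.85 over 6.20 to 6.28 at 0 and 0.3 ppb. For mgp, matrix Gla protein, an inhibitor of calcification, they ran from 7.30 over 7.41 to 7.67, against 6.90 over 6.98 to 7.22. The differences were 0.47 (SE 0.13) for dntt and 0.42 (SE 0.10) for mgp, each with 10 of 12 features higher. The remaining 4 genes differed by less: 0.29 for the sterol transfer gene stard4 (SE 0.09), 0.29 for the phosphatase gene ilkap (SE 0.09), 0.28 for the potassium channel gene kcnk1a (SE 0.08) and 0.28 for the tubulin polyglutamylase gene ttll11 (SE 0.08). With the median of features stard4 differed by 0.03 and ilkap by 0.16, so these differences rested on part of their 12 features.

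The 10 lower genes differed by -0.16 to -0.42, less than the larger of the higher genes. The largest difference was in vgll2a, a transcription cofactor gene of skeletal muscle and of pharyngeal development. It read 6.82, 6.76 and 6.72 at 3 ppb and 6.61, 6.75 and 6.78 at 30 ppb, against 6.93, 7.12 and 7.51 at 0 ppb and 7.27, 6.97 and 7.17 at 0.3 ppb. The pools of the higher doses lay close together (SD 0.07) and those of the other side did not (SD 0.21). The difference was -0.42 (SE 0.11), and 0 of 11 features were higher. The other 26 striated muscle genes overlapped, with a list median of -0.00, so vgll2a stood alone among them.

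The phosphoinositide phosphatase gene sacm1lb, whose product works at the endoplasmic reticulum and Golgi, read 9.96, 10.10 and 10.09 at 3 ppb and 10.10, 10.19 and 10.28 at 30 ppb, against 10.30, 10.44 and 10.46 at 0 ppb and 10.70, 10.56 and 10.54 at 0.3 ppb. Its highest pool at the higher doses stood just 0.02 under the lowest of the other side. The difference was -0.38 (SE 0.08), with 0 of 12 features higher. The gene tgfbrap1, which in mammals encodes a protein of endosome tethering that also binds TGF-beta receptors, differed by -0.34 (SE 0.11), likewise with 0 of 12 features higher. For sertad3, a transcriptional regulator, pools ran from 6.38 over 6.44 to 6.55 at 3 and 30 ppb, against 6.59 over 6.72 to 7.02 at 0 and 0.3 ppb, a difference of -0.31 (SE 0.08). Its 0.3 ppb pools (6.82 to 7.02) stood above its 0 ppb pools (6.59 to 6.63).

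**Figure D3:**
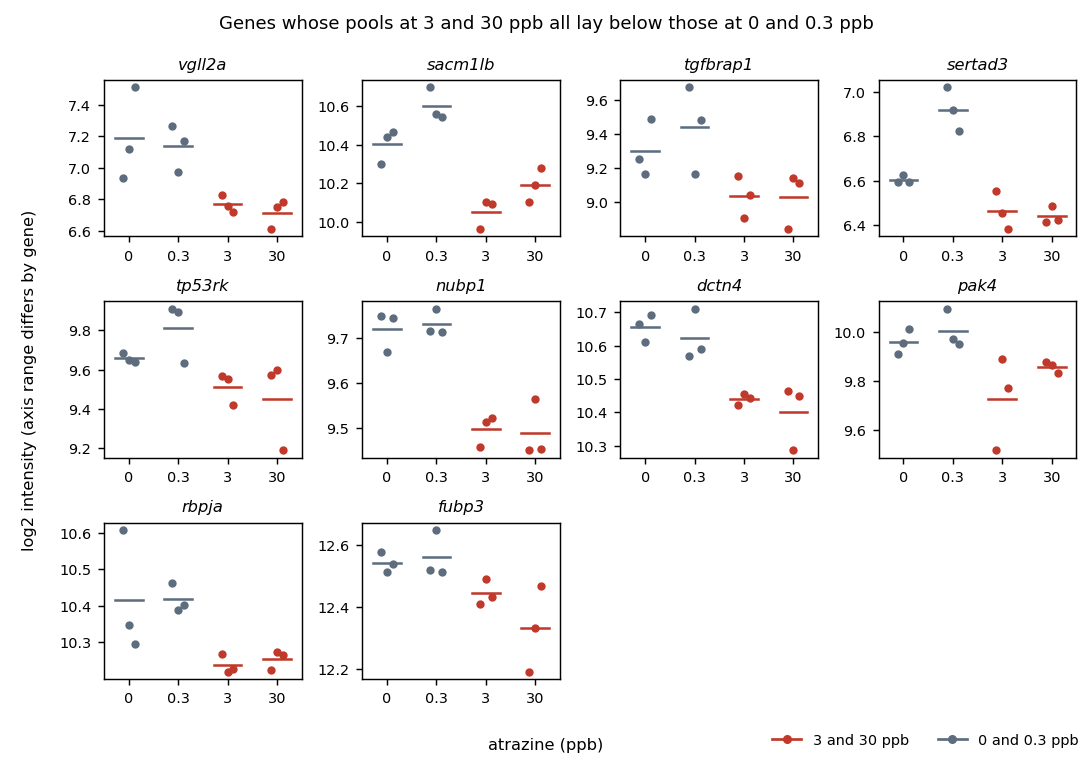
Log2 intensity (vertical axis, with its own range in each panel) by atrazine dose in ppb (horizontal axis) for the 10 genes whose pools at 3 and 30 ppb all lay below those at 0 and 0.3 ppb. Points are single pools, 3 per dose, and bars are dose means; vgll2a pools lie at 6.61 to 6.82 against 6.93 to 7.51.

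The remaining 6 lower genes serve housekeeping and signalling roles. The iron-sulfur cluster assembly gene nubp1 ran from 9.45 over 9.49 to 9.56 at 3 and 30 ppb, against 9.67 over 9.73 to 9.77 at 0 and 0.3 ppb. Its difference of -0.23 (SE 0.08) was small, and 3 of 12 features were higher. The gap was 0.11, with an SD of 0.05 at the higher doses and 0.03 on the other side. Genes were chosen for such a gap, so its size adds nothing to the difference. The dynactin subunit gene dctn4, part of the dynein motor's adaptor, differed by -0.22 (SE 0.08) with a gap of similar size. For tp53rk, the kinase of a tRNA-modifying complex, the difference was -0.25 (SE 0.10). It was -0.19 for the kinase gene pak4 (SE 0.09), -0.17 for rbpja (SE 0.08), which encodes the DNA-binding effector of Notch signalling, and -0.16 for the nucleic acid-binding gene fubp3 (SE 0.08). With the median of features tp53rk differed by -0.15, nubp1 by -0.13, pak4 by -0.07 and rbpja by -0.06. By the size of the gap between dose means, pcdh2g13, a clustered protocadherin, was among the next in order, at -0.35 (SE 0.18), and overlapped in its pools.

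Within the sides, dose made no difference that passed. limma's F test over 30 minus 3 ppb and 0.3 minus 0 ppb called 0 of 37144 units (0%) at an adjusted p under 0.05. At an unadjusted p under 0.05 it had 301 units (0.81%). Evenly spread p-values would give a share of 0.05, so these p-values ran high and the count of 0 says little. Taken alone, 30 minus 3 ppb and 0.3 minus 0 ppb also called 0 units each (0%). At an unadjusted p under 0.05 they had 283 and 551 units, likewise below a share of 0.05. A fit with array quality weights, whose estimation gave a convergence warning, called 313 in the F test, 2212 for 30 minus 3 ppb and 0 for 0.3 minus 0 ppb, so the count of 0 for 30 minus 3 ppb depends on weighting the arrays equally. This does not show that the doses put together act alike. The 95% interval of such a difference reached 0.39 to either side of its estimate in the median unit, which leaves room for changes as large as many of the differences between the sides.

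The intervals of single genes were as wide. For lhb, 30 minus 3 ppb was -0.03 (95% interval -0.60 to 0.54) and 0.3 minus 0 ppb was 0.33 (-0.24 to 0.90). For npffl the values were -0.06 (-0.41 to 0.29) and 0.13 (-0.22 to 0.48), and for vgll2a -0.05 (-0.39 to 0.28) and -0.05 (-0.38 to 0.28). The interval that left out 0 among the 22 genes without overlap was that of sertad3 for 0.3 minus 0 ppb, 0.31 (0.07 to 0.56), with a limma adjusted p of 1 over all units.

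Each side holds separate doses, so the contrast can be split into pairs of differences that share no pool. Over all units, 3 minus 0.3 ppb and 30 minus 0 ppb had a Pearson r of 0.43 and the same sign in 61.0% of units. In the other pairing, 3 minus 0 ppb and 30 minus 0.3 ppb, r was 0.29 and 55.7% had the same sign. Units share their arrays and vary together, so neither value is a test. The grouping was also noticed in these arrays, and that choice favours a positive r in both pairings. In the second pairing r was 0.05 without replicate 3 at 0 ppb, 0.07 without replicate 2 at 3 ppb and 0.48 without replicate 1 at 3 ppb, so it rests on single pools. The genes without overlap have the same sign in every pairing by the way they were chosen, so their values show size alone. For lhb the differences were 1.11 and 1.42 in the first pairing and 1.44 and 1.09 in the second. For npffl they were 0.65 and 0.72, then 0.79 and 0.59. For vgll2a they were -0.37 and -0.47, then -0.42 and -0.42, while sacm1lb was less even, at -0.55 and -0.21, then -0.35 and -0.41.

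**Figure D4:**
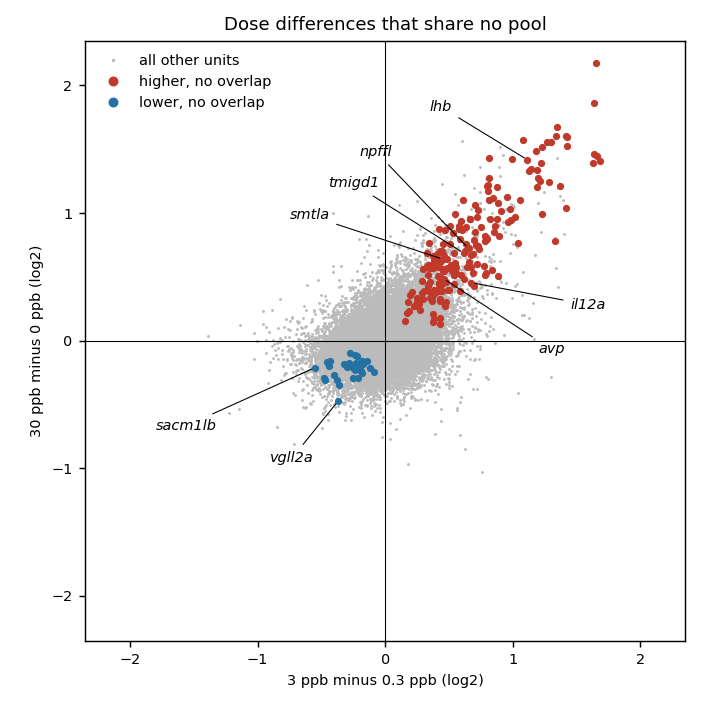
The difference 3 minus 0.3 ppb (log2, horizontal axis) against 30 minus 0 ppb (log2, vertical axis) for 37144 units, in which no pool enters both differences. Red points are the 189 units higher and blue points the 31 units lower without overlap, which the rule places in their corners, grey points are all other units, and r over all units is 0.43; lhb lies at 1.11 and 1.42. The grouping was noticed in these arrays, which favours a positive r.

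The sides did not follow the main axis of variation between arrays. The first principal component held 41.4% of the variance, and the sides accounted for 0.623% of it. On the next components, with 14.2% and 10.3% of the variance, the sides accounted for 33.0% and 41.9%, and 4 of the 6 pools at 3 and 30 ppb lay beyond all 6 pools of the other side on each. The slope of intensity along the number that ends each feature's ID, within a target, ran from -0.065 to 0.055 per 1000 steps at 3 and 30 ppb and from -0.061 to 0.029 at 0 and 0.3 ppb, so it overlapped between the sides. With the slope as a covariate the fit of the sides had 171 units higher and 1 lower, against 54 and 0 without it, and r in the second pairing was 0.43, against 0.29.

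Among gene families, the odorant and taste receptor genes were mostly higher. Of 16, 15 were higher and 1 lower, with a median of 0.13, although 0 were without overlap. Against 0 ppb the median was 0.24 at 3 ppb and 0.19 at 30 ppb. Against 0.3 ppb it was 0.10 at 3 ppb and 0.03 at 30 ppb. These receptors serve smell and taste in sensory neurons and taste cells. The odorant receptor gene or41a2 ran from 5.78 over 6.07 to 6.37 at 3 and 30 ppb, against 5.34 over 5.69 to 6.12 at 0 and 0.3 ppb, a difference of 0.40 (SE 0.14). For or41a2, 0.3 minus 0 ppb was 0.36 and 3 minus 0.3 ppb was 0.14, so much of its rise came before 3 ppb. The bitter taste receptor gene tas2r200.1 differed by 0.31 (SE 0.15). Per pool the family median ran from -0.13 to 0.32 at the higher doses and from -0.25 to 0.18 on the other side, which overlapped. These genes were dim, as were most units higher without overlap: with the orphan receptors, the median member was brighter than 10.4% of units.

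The receptors for monoamines, acetylcholine and opioids, listed with fev, a transcription factor of serotonin neurons, gave 14 higher and 3 lower of 17 genes, but small differences with a median of 0.04. The largest were in the muscarinic receptor gene chrm5a, at 0.30 (SE 0.10), or 0.74 with the median of features, and the delta opioid receptor gene oprd1b, at 0.20 (SE 0.13). For chrm5a, 0.3 minus 0 ppb was 0.38, while 3 minus 0.3 ppb and 30 minus 0.3 ppb were 0.11 each. Its rise thus lay mostly between 0 and 0.3 ppb. The median of the 17 genes was 0.07 for 3 minus 0 ppb and 0.005 for 30 minus 0 ppb. Of the 42 ion channel and ionotropic receptor genes 19 were higher and 23 lower, with kcnk1a alone without overlap. The AMPA receptor gene gria1a was the most negative at -0.29 (SE 0.14). Its 0.3 ppb mean lay 0.31 above control, while 3 minus 0 ppb was -0.11 and 30 minus 0 ppb was -0.15. The 19 neuronal and synaptic genes had a median of -0.05, with 7 higher and 12 lower, and the synaptic adhesion gene nrxn2b was lowest at -0.33 (SE 0.13).

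The cadherin superfamily lay on the lower side. Of 33 genes, 29 were lower and 4 higher, with a median of -0.16 and 0 without overlap. Clustered protocadherins give neurons surface identities by homophilic binding, and 22 of the 24 measured genes of the pcdh2 cluster were lower. The gene pcdh2ab10 ran from 7.98 over 8.23 to 9.10 at 3 and 30 ppb, against 8.51 over 8.72 to 8.86 at 0 and 0.3 ppb, a difference of -0.35 (SE 0.15). For pcdh2ab10, 3 minus 0 ppb was -0.59 and 30 minus 0 ppb was -0.19. The seven-pass cadherin gene celsr2, of planar cell polarity, differed by -0.40 (SE 0.27). For celsr2, 3 minus 0 ppb was -0.28, while 30 minus 0 ppb was 0.01, so its 30 ppb mean lay at that of control. The median of the 33 genes was -0.16 for 3 minus 0 ppb and -0.07 for 30 minus 0 ppb. Per pool the median of the pcdh2 genes ran from -0.42 to 0.38 at the higher doses, against -0.05 to 0.36 on the other side, so the pools overlapped. Genes of the cluster share constant exons, and whether their features also bind each other's transcripts was not tested, so they are not 24 separate measurements.

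Axon guidance genes were lower in 11 of 12, with a median of -0.16. They include dcc, the netrin receptor, at -0.38 (SE 0.17). Pool medians of the 12 genes ran from -0.27 to 0.10 at 3 and 30 ppb and from 0.00 to 0.35 at 0 and 0.3 ppb, which overlapped. Against 0 ppb the median of the 12 was -0.13 at 3 ppb and -0.10 at 30 ppb. Against 0.3 ppb it was -0.24 at 3 ppb and -0.25 at 30 ppb, so the fall was smaller against control. With the other developmental signalling genes 37 of 44 were lower and 7 higher (median -0.06), led by dcc and the retinoic acid receptor gene rargb at -0.38 (SE 0.15). Of 47 developmental transcription factor genes 38 were lower and 9 higher (median -0.07), with foxk1 at -0.34 (SE 0.14). The median of the 47 was 0.06 for 0.3 minus 0 ppb, -0.01 for 3 minus 0 ppb and -0.10 for 30 minus 0 ppb. Their pool medians ran from -0.12 to 0.10 at 3 and 30 ppb and from -0.12 to 0.14 at 0 and 0.3 ppb, which overlapped. Over all units 19952 of 37144 were lower, the background against which such counts are to be read.

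Extracellular matrix genes were lower in 14 of 19 (median -0.05). The basement membrane laminin gene lama1 ran from 8.19 over 8.44 to 9.15 at 3 and 30 ppb, against 8.74 over 9.07 to 9.25 at 0 and 0.3 ppb, a difference of -0.45 (SE 0.16). For lama1, 3 minus 0 ppb was -0.62 and 30 minus 0 ppb was -0.19. The fibrillar collagen gene col27a1b differed by -0.39 (SE 0.14). The bone genes split, with osteocalcin (bglap) at 0.30 (SE 0.13) and the osteoblast factor sp7 at -0.11 (SE 0.14). The 5 pigment cell genes had a median of -0.20, with csf1ra, a receptor of pigment cells and macrophages, at -0.41 (SE 0.21) and pmela at 0.02 (SE 0.31).

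The ubiquitin and proteasome genes differed little. Of 55, 40 were lower and 15 higher, with a median of -0.07 and 0 without overlap. All 6 proteasome subunit genes were lower, with differences of -0.09 to -0.01. Per pool the median of the 55 ran from -0.045 to -0.003 at 3 and 30 ppb and from 0.014 to 0.066 at 0 and 0.3 ppb, without overlap. Besides the peptide and hormone genes, this was the single list of the 30 with 3 or more measured genes whose pool medians did not overlap. It too was drawn up with earlier results of these data known, so that separation is a description. All genes with a usable symbol had a median of -0.02. The list median was -0.04 without replicate 1 at 0.3 ppb. Its highest member was trim35-36, a gene of the TRIM family of ubiquitin ligases that is also counted with innate immunity. It ran from 6.35 over 6.55 to 7.04, against 5.88 over 5.99 to 6.41, a difference of 0.53 (SE 0.13) with 5 of 6 pools above the other side. The deubiquitinase gene otud3 was at the other end, at -0.25 (SE 0.13).

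Cytokine and innate immunity genes were mixed, with 25 higher and 14 lower of 39 (median 0.05). The interleukin genes measured, il12a among them, were higher in 7 of 9, with a median of 0.14. Their pool medians ran from -0.10 to 0.24 at 3 and 30 ppb and from -0.25 to 0.08 at 0 and 0.3 ppb, which overlapped. The median member of the 39 was dim, brighter than 20.6% of units, as were most units higher without overlap. The gene il1b, of the inflammatory cytokine interleukin 1 beta, differed by 0.42 (SE 0.42). Digestive genes had a median of 0.50 over 5 genes, with 4 higher. The 5 include tmigd1, named above for its lack of overlap, and the middle member had an SE of 0.34. The list median was 0.23 without replicate 1 at 30 ppb. Per pool it ran from -0.10 to 0.49 at 3 and 30 ppb and from -0.37 to 0.10 at 0 and 0.3 ppb, which overlapped. The pancreatic protease gene prss59.1 ran from 9.96 over 11.17 to 12.36 at 3 and 30 ppb, against 9.44 over 10.62 to 11.50 at 0 and 0.3 ppb, so its difference of 0.66 (SE 0.36) was small beside the spread of its pools. For prss59.1, 0.3 minus 0 ppb was -0.80, 3 minus 0 ppb 0.33 and 30 minus 0 ppb 0.18. Among globins ba1l differed by 0.51 (SE 0.12), or 0.20 with the median of features, and hbbe3 by -0.22 (SE 0.23). For hbbe3, 0.3 minus 0 ppb was 0.60, 3 minus 0 ppb 0.19 and 30 minus 0 ppb -0.03. The genes ba1l and hbbe3 belong to a family of similar sequences whose features may not separate them.

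Other lists had medians close to that of all units. The 30 genes of xenobiotic metabolism had a median of 0.02, with the glutathione transferase genes gstp1.1 at 0.25 (SE 0.21) and gstk4 at -0.25 (SE 0.17). For gstp1.1, 0.3 minus 0 ppb was -0.34, 3 minus 0 ppb -0.04 and 30 minus 0 ppb 0.19. For gstk4 these were 0.35, -0.07 and -0.08. The 12 cholesterol genes had a median of 0.06, with the desaturase gene sc5d at 0.18 (SE 0.18). The gene srebf2, which encodes the transcription factor of that pathway, differed by -0.24 (SE 0.11). For srebf2, 0.3 minus 0 ppb was 0.19, 3 minus 0 ppb -0.12 and 30 minus 0 ppb -0.16. For 30 lens and photoreceptor genes the median was 0.04, though 24 were higher and 6 lower. Among them were the lens crystallin gene crygm2a at 0.38 (SE 0.24) and the photoreceptor gene guca1ab.1 at 0.29 (SE 0.09). The medians were -0.01 for 67 solute carriers, -0.03 for 62 genes of RNA processing and translation, -0.03 for 52 of membrane trafficking and -0.02 for 15 of the cell cycle. Single members reached further, such as iars1, an isoleucyl-tRNA synthetase gene, at -0.35 (SE 0.11), trappc12, a gene of vesicle tethering, at -0.41 (SE 0.13), the nucleoside transporter gene slc29a1a at -0.39 (SE 0.18) and abhd13 at -0.34 (SE 0.09).

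**Figure D5:**
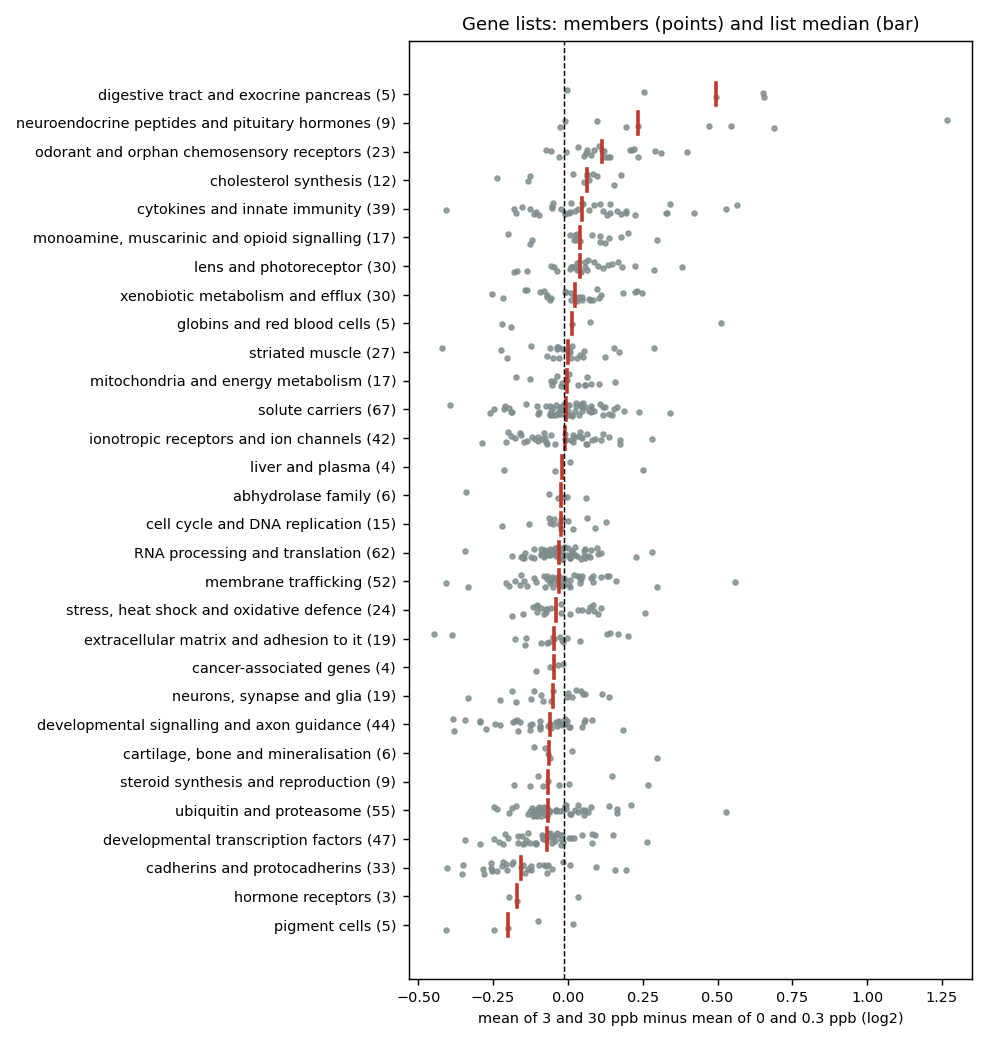
Difference between the mean of 3 and 30 ppb and the mean of 0 and 0.3 ppb (log2, horizontal axis) for the members of the 30 lists with at least 3 measured genes, ordered by median; the number of measured genes follows each name. Grey points are genes, red bars are list medians and the dashed line is the median of all units at -0.01; the digestive (0.50) and the peptide and hormone (0.23) lists stand farthest to the right. Both of these lists include genes that are themselves without overlap.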

How the data were processed

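Whole zebrafish larvae were measured on 12 1-colour arrays. The authors deposited a matrix of 385000 features, each an intensity on a linear scale. RMA is named in the submitters' processing notes, with version and settings not given in the sources used here. The values are per feature, not per transcript, and array medians lay between 529.2 and 530.4, so the arrays had been put on a common scale. The plan had assumed log2 values, so log2 was taken first. Features were averaged per symbol (platform annotation, or RefSeq accession for 399 features) or per target ID, giving 37144 units, of which 2650 had a symbol and 192 of these only a clone or locus ID. No unit was filtered.

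Dose means were fitted over all 12 pools with limma 3.58.1 (R 4.3.3; tables and figures used Python 3.11.15, pandas 2.3.3 and matplotlib 3.10.9) and Benjamini-Hochberg adjustment over all units at 0.05. p-values measure the spread between these pools only. Precision is limited by how few arrays there were. The fits were tested on simulated data.

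Genes named are up to 12 per direction by size among those without overlap, filled by the gap between dose means, and in each list with at least 3 measured genes the 2 largest and the 1 smallest difference; other genes were named after their values were seen, and 3 genes are not reported here. The 32 lists, holding 714 measured genes, and the grouping were chosen with earlier results of these data known, and members of unrelated function were removed once the measured symbols were seen. Alternatives were the median of features, cyclic loess, median centring, leaving out dim units, array quality weights, a gradient covariate, 2 groups of 6 pools, a replicate block, a looser threshold and leaving out each pool.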

Additional observations from a re-analysis of the deposited data

Results flagged for a closer look

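Among 105 named genes, each side of 6 pools was searched for a pool that stood apart, by the gap to its neighbour as a share of the range. Of 210 such groups, 14 held a pool past the 95% critical value of 0.625, where chance flags about 1 group in 20. On the side of 3 and 30 ppb these were, first, dctn4 in replicate 2 at 30 ppb (below, 10.29 against 10.42 to 10.46 in the other pools). Others were pak4 in replicate 1 at 3 ppb (below, 9.52 against 9.77 to 9.89 in the other pools), lhcgr in replicate 1 at 30 ppb (above, 6.14 against 5.67 to 5.82 in the other pools) and npy7r in replicate 1 at 3 ppb (below, 6.04 against 6.58 to 6.84 in the other pools). Further pools were foxk1 in replicate 1 at 3 ppb (above, 9.95 against 9.28 to 9.51 in the other pools), nrxn2b in replicate 3 at 30 ppb (above, 9.96 against 9.37 to 9.57 in the other pools) and snap47 in replicate 1 at 3 ppb (above, 9.20 against 8.35 to 8.45 in the other pools). The last was otud3 in replicate 1 at 30 ppb (above, 10.17 against 9.39 to 9.67 in the other pools). On the side of 0 and 0.3 ppb the pools were, first, ilkap in replicate 3 at 0.3 ppb (below, 8.95 against 9.24 to 9.42 in the other pools). They also included oprd1b in replicate 1 at 0 ppb (above, 6.99 against 6.68 to 6.78 in the other pools), tas2r200.1 in replicate 1 at 0.3 ppb (above, 6.69 against 5.77 to 5.97 in the other pools) and fmoda in replicate 3 at 0.3 ppb (below, 12.50 against 12.88 to 13.06 in the other pools). Next came hspb9l in replicate 3 at 0.3 ppb (above, 10.59 against 9.77 to 10.05 in the other pools) and klf13 in replicate 3 at 0.3 ppb (above, 10.02 against 9.25 to 9.47 in the other pools). Of the genes without overlap between the sides, ilkap, dctn4 and pak4 are among these. Replicate 1 at 3 ppb and replicate 3 at 0.3 ppb each gave 4 of the 14 pools. No cause was tested.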

How the results depend on the processing

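Over the alternatives, 7 of 570 combinations of a list and a setting and 6 of 1970 combinations of a named gene and a setting moved by more than the spread. Of the named genes, 0 reversed by more than the spread. Differences near 0 could change sign within it. The contrast between the sides, with 54 units higher and 0 lower, had 31 higher with the median of features, 24 without dim units, 171 (and 1 lower) with the gradient covariate, 103 as 2 groups of 6 pools and 98 at an adjusted p under 0.1. Array quality weights, whose estimation gave a convergence warning, had 655 higher, 438 lower and, within the sides, 313 in the F test and 2212 for 30 minus 3 ppb. Leaving out a pool gave 9 to 74 higher: 9 without replicate 3 at 3 ppb, 18 without replicate 2 at 30 ppb, 14 without replicate 3 at 0.3 ppb, and 21 and 24 without replicates 2 and 3 at 0 ppb. Within the sides the count was 0 without any single pool. Units without overlap numbered 114 higher and 63 lower with the median of features, 98 higher without dim units (fewer units entered) and 12 lower with median centring, while leaving out a pool gave 207 to 318 higher and 45 to 158 lower. The median of all units was -0.01, and 0.01 under both median centring and cyclic loess. For 3 minus 0.3 ppb and 30 minus 0 ppb, the median of features gave r = 0.34 and 58.1% of the same sign, and leaving out a pool gave r from 0.28 to 0.51 and 54.4% to 63.7%. For the other pairing these ranges were 0.0526 to 0.48 and 47.5% to 65.1%. List medians moved to -0.19 for globins without dim units, 0.21 for digestive genes with quality weights and 0.035 for neuronal genes with the median of features. Leaving out a pool gave -0.26 to 0.0815 for the 3 hormone receptors, 0.23 to 0.72 for digestive genes and -0.0790 to -0.0412 for ubiquitin genes. Beyond the settings that work by construction, the cause was not tested.

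With the replicate number as a block, 96 units were higher and 0 lower, and 0 differed within the sides. Deviations of the 18 same-number pairs had correlations of -0.37 to 0.68 (median 0.07), and 9 were over 0.1. In the 36 pairs of different number they were -0.72 to 0.59 (median -0.02), and 10 were over 0.1. Replicate 1 at 0.3, 3 and 30 ppb had 0.43 to 0.52 and replicate 2 at 0, 0.3 and 3 ppb 0.64 to 0.68, so part of the same-number pools varied together. No label says what the numbers stand for, and the main fit did not pair the pools by them. Whether pools of a number share an origin was not tested. The files give no background signal, which limits what can be said of dim units.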

Other observations

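Of the units without overlap, 176 of the 189 higher and 21 of the 31 lower were targets without a symbol, against 34494 of all 37144 units. Units with a symbol made up 6.9% of the 189 and 7.1% of all units, so the share among the 189 was near that of the array. By ID, 70 were Ensembl and 61 were Vega transcript models, 37.0% and 32.3% of the 189, beside 27.3% and 30.4% of all units. Some models may describe the same transcript, so the 189 are not 189 genes. The largest difference was in ENSDART00000092677, with 7 features, whose pools ran from 7.98 over 8.31 to 8.66 at 3 and 30 ppb, against 5.51 over 6.25 to 7.72 at 0 and 0.3 ppb, or 1.91 (SE 0.34). The next was ZV700S00001934, with 2 features, at 6.80 over 7.42 to 8.11, against 5.37 over 5.78 to 5.86, or 1.75 (SE 0.23). On the lower side OTTDART00000028838 and OTTDART00000016743 differed by -0.39 each (SE 0.09 and 0.11).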
